A study of Rattus norvegicus with 2 samples.

Results

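The genes described here are the pore-forming and auxiliary subunits of voltage-gated calcium channels, voltage-gated sodium channels and potassium channels on a rat expression array, measured in fetal skin at 2 stages. Members were taken by name, as genes whose array name begins with Kcn, Cacna, Cacnb or Cacng, or with Scn and a digit. This gave 125 of the 18365 named genes on the array: 86 potassium, 25 calcium and 14 sodium channel genes, with 161 probes in all. By the tissue each is best known from, 64 were classed as neuronal, 18 as muscle (skeletal, cardiac or smooth), 10 as epithelial and the remaining 33 as other. The classes are a judgement, since many of these genes are active in more than one tissue: of the muscle class, Kcnh2 and Cacna2d1 are also known from neurons.

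Both groups were skin of Sprague Dawley rat fetuses, and the labels give no treatment or genetic change for either. RNA of 4 samples of day 16.5 made up the pool that the labels call E16, and RNA of 3 samples of day 18.5 made up the E19 pool. The same pools were hybridised to 2 two-colour Agilent arrays with the dyes exchanged, so each stage is represented by 1 replicate and no test between stages is possible. Values are given as log2 ratios of E19 over E16, with E19 in Cy5 on the first array and in Cy3 on the second, and as their mean ± the SD of the 2 arrays, which holds technical spread but nothing of the spread between animals.

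Voltage-gated sodium channels open on depolarisation and carry the upstroke of the action potential in nerve and muscle. Voltage-gated calcium channels let calcium into the cell, where it releases transmitter at nerve endings and couples excitation to contraction in muscle. Potassium channels set the resting potential and end the action potential, and in epithelia they also drive the transport of salt and water. Skin holds the axons of sensory and sympathetic neurons, the sheet of skeletal muscle beneath the dermis, vascular smooth muscle, and the epidermis with its appendages.

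Spots well above background made up 71.5% to 74.3% of each channel, and the array with E19 in Cy5 correlated with the array with E19 in Cy3 at r = 0.90 across all detected named genes and 0.95 across detected channel genes. A gene counted as detected when its probe was well above background for at least 1 pool on both arrays, and as past the size rule when it was also at least 2-fold higher in the same pool on both. All 8 keratinocyte markers on the array were detected, with a median log2 ratio of 1.67 and 6 of them at least 2-fold higher in E19. No channel gene was 2-fold higher in the same dye on both arrays, against 3 genes of the whole array, and no channel gene had a saturated spot.

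Channel genes as a whole lay towards E16. Of 92 detected members, 12 were past the size rule with more signal in the E16 pool and 2 with more in the E19 pool, while 78 passed in neither direction. Over all 14803 detected named genes, 3.74% were past the rule towards E16 and 4.15% towards E19. The median log2 ratio was -0.27 for the 92 members and 0.02 for all detected genes, and 68 of the 92 lay below 0. Fewer cells of a type and less RNA per cell cannot be told apart in these whole-tissue pools, here or in any result that follows.

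The neuronal and muscle members had medians below 0 and the epithelial members one near 0. Among 49 detected neuronal channels, 8 were past the rule towards E16 and 0 towards E19, with a median of -0.43 and 41 below 0. Among 14 detected muscle channels, 3 were past the rule towards E16 and 0 towards E19, with a median of -0.42 and 10 below 0. The 5 detected epithelial channels had 0 past the rule either way and a median of -0.07, and the 24 detected members of no single tissue had 1 past the rule towards E16, 2 towards E19 and a median of -0.03. With 1 pool per stage the difference between these classes has no test, and the epithelial median rests on 5 genes. Of the neuronal members, 9 were measured (well above background) in the E16 pool only, whereas all 14 detected muscle members were measured in both pools. Over all members 11 were measured in the E16 pool only and 0 in the E19 pool only, against 230 and 131 of the 14803 detected genes.

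**Figure D1:**
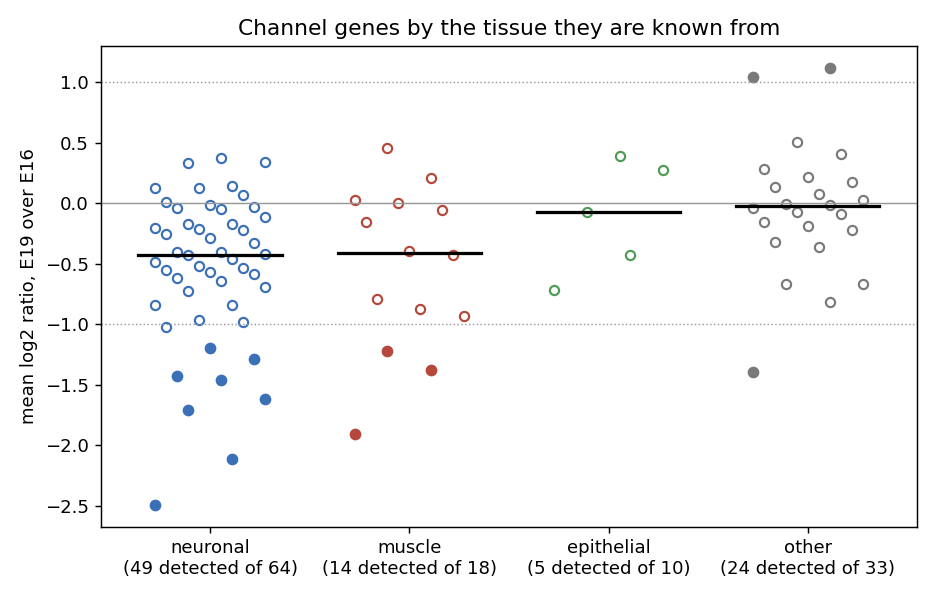
Mean log2 ratio of E19 over E16 for each of the 92 detected channel genes, by tissue class; filled points are at least 2-fold in the same direction on both arrays, the black line is the class median, and dotted lines mark 2-fold. The neuronal and muscle medians are -0.43 and -0.42, and the epithelial and other medians -0.07 and -0.03.

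By list median, general neuron and central nervous system markers were lower in E19 beside the neuronal channels. Muscle and sensory neuron markers had medians near or above 0, although the summed levels of the sensory and skeletal muscle lists were lower in E19. All 12 general neuron markers on the array were detected, 10 were past the rule towards E16, and their median log2 ratio was -2.89. The summed normalised level of the list was 15.92 and 15.91 (log2, Cy3 and Cy5) in E16 and 13.48 and 13.52 (log2, Cy5 and Cy3) in E19. Of 12 markers of the central nervous system on the array, 9 were detected and 6 were past the rule towards E16, led by Fabp7, a fatty acid binding protein of radial glia, at -4.87 ± 0.30 (SD, 2 arrays). Their summed level was 14.55 and 14.51 in E16 and 11.26 and 11.19 in E19 (log2). Gad2, Olig2 and Slc17a7 of that list were not detected. Of 11 markers of sensory and sympathetic neurons, all were detected and 2, among them the substance P precursor Tac1, were past the rule towards E16, with a list median of 0.00 and a summed level of 13.25 and 13.46 in E16 and 12.77 and 12.60 in E19. The 14 skeletal muscle markers had a median of 0.03, with the myogenic factors Myod1, Myf5 and Myog past the rule towards E16 and the muscle creatine kinase Ckm and the perinatal myosin Myh8 past it towards E19. Their summed level was 18.70 and 18.67 in E16 and 18.36 and 17.97 in E19. Of 5 smooth muscle markers, Tagln was past the rule towards E16 at -1.54, but 3 lay above 0 and the median was 0.18. Of 8 Schwann and glial markers, 1 was past the rule towards E16, with a median of -0.15. Lists of tissues not named in the channel classes differed too, with medians of -1.90 for 5 cartilage markers (3 past the rule towards E16), 3.66 for 5 adipocyte markers (4 towards E19) and 1.13 for 4 melanocyte markers (2 towards E19), and 0.30 for 4 endothelial markers (0 either way). The part of these cell types in the channel differences was not tested.

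Promoter windows of 4 members, chosen after their values were seen, are given because the members past the rule differ in them: Cacna1b and Scn9a have the largest ratios towards E16 in the list, Cacna1s is a skeletal muscle member and Kcns3 is higher in E19. Each is the 250 bases before the annotated start, 5′ to 3′ on the gene's strand, from RefSeq on GRCr8. Capitals mark 3 motifs searched on both strands: CAGCTG, a form of the E-box that myogenic factors bind, TATAAA, the TATA box, and GGGCGG, the GC box.
Cacna1b: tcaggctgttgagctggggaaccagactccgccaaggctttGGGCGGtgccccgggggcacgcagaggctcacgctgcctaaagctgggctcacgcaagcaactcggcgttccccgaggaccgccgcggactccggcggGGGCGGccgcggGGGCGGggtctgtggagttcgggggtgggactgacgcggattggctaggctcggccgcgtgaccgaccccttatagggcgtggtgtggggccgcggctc
Scn9a: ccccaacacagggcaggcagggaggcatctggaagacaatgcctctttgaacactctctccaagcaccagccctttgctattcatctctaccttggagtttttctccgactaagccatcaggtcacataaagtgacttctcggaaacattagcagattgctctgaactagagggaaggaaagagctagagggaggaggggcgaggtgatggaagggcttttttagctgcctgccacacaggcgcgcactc
Cacna1s: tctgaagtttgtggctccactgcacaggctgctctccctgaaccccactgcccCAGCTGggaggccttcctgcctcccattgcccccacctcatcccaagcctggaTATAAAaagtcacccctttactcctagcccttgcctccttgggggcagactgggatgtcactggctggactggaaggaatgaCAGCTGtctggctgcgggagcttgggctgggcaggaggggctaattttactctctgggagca
Kcns3: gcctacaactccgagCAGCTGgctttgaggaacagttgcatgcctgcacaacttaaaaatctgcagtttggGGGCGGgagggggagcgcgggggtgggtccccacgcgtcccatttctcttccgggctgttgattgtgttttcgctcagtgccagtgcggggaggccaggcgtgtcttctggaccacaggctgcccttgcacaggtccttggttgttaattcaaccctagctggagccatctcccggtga
The windows are chr3:27944286-27944535 on the minus strand for Cacna1b, chr3:71701378-71701627 on the minus strand for Scn9a, chr13:50045418-50045667 on the plus strand for Cacna1s, and chr6:39584106-39584355 on the minus strand for Kcns3, which has 2 listed windows. The Cacna1b window holds 3 GC boxes and the Scn9a window none of the 3 motifs. The Cacna1s window holds 2 E-boxes and 1 TATA box, and that of Kcns3 holds 1 E-box and 1 GC box. Of the 125 members, 83 matched the promoter table, with 92 windows of 300 bases (250 before the start and 50 after). GGGCGG was in 51.1% of these windows against 33.1% of all 33469 windows in the table, CAGCTG in 26.1% against 15.1%, and TATAAA in 4.35% against 14.2%. The median GC content was 61.7% in the channel windows and 51.7% in all windows. By class, CAGCTG was in 19.1% of 47 neuronal, 28.6% of 14 muscle, 42.9% of 7 epithelial and 33.3% of 24 other windows. A match is only a run of letters, and no binding was measured.

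Most detected calcium channel genes had a mean ratio below 0. Of 25 members, 19 were detected, 18 of them had a mean below 0 and 16 lay below 0 on both arrays. Past the rule were 5 towards E16 and 0 towards E19, and the median log2 ratio was -0.79. The pore-forming alpha1 subunits decide which current a channel carries. Cacna1b, the N-type subunit of presynaptic endings, had log2 ratios of -2.45 and -2.53 on the 2 arrays. Its normalised level was 11.04 and 10.92 (log2, Cy3 and Cy5) in E16 and 8.59 and 8.38 (log2, Cy5 and Cy3) in E19. The mean of -2.49 ± 0.06 is a level 5.62-fold higher in E16, and was the largest ratio of any channel gene in either direction. A second, dimmer Cacna1b probe was not detected and had a mean of -0.03.

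Cacna1d, an L-type subunit of neurons and endocrine cells, had ratios of -1.52 and -1.28 (mean -1.40 ± 0.17). Its probes did not read alike: 2 dimmer ones had means of -0.77 and 0.12, and averaging the probes takes Cacna1d out of the count. Cacna1s, the L-type subunit that senses voltage for contraction in skeletal muscle, had levels of 12.23 and 12.11 in E16 and 10.87 and 11.02 in E19 (log2) and ratios of -1.36 and -1.09 (mean -1.22 ± 0.19). Its second probe, far dimmer, read -0.14 and -0.10, and averaging the probes takes Cacna1s out of the count as well. Cacna1c, the L-type subunit of heart and smooth muscle, reached 2-fold on 1 array only, with -0.83 and -1.04. The T-type subunit Cacna1h had a mean of -0.82 ± 0.22, the T-type subunit Cacna1g -0.42 ± 0.11, and the R-type subunit Cacna1e -0.12 ± 0.08. The alpha1 genes Cacna1a (P/Q-type), Cacna1f and Cacna1i were not detected.

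Auxiliary subunits bring alpha1 to the membrane and tune it. Both detected alpha2delta genes were past the rule. Cacna2d1, the form of skeletal muscle and sensory neurons and the target of gabapentin, had levels of 14.84 and 14.50 in E16 and 13.39 and 13.19 in E19 (log2), with ratios of -1.45 and -1.31. Cacna2d3, a neuronal form, had ratios of -1.28 and -1.29. Their means were -1.38 ± 0.10 and -1.29 ± 0.01. All 4 beta subunits, which bind alpha1 inside the cell, were detected and none was past the rule. The skeletal muscle subunit Cacnb1 reached 2-fold on 1 array, with -0.744 and -1.002, while Cacnb2 had a mean of -0.79 ± 0.01, Cacnb3 -0.69 ± 0.33 and Cacnb4 -0.02 ± 0.22. Of 8 gamma subunits 6 were detected. Cacng2, or stargazin, which carries AMPA receptors to the synapse, had ratios of -1.01 and -0.92. Cacng1, the gamma subunit of the skeletal muscle channel, had 0.09 and -0.20, so the arrays placed it on opposite sides of 0. The skeletal muscle channel is built from Cacna1s, Cacna2d1, Cacnb1 and Cacng1, and its subunits thus had mean log2 ratios of -1.22, -1.38, -0.87 and -0.06.

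**Figure D2:**
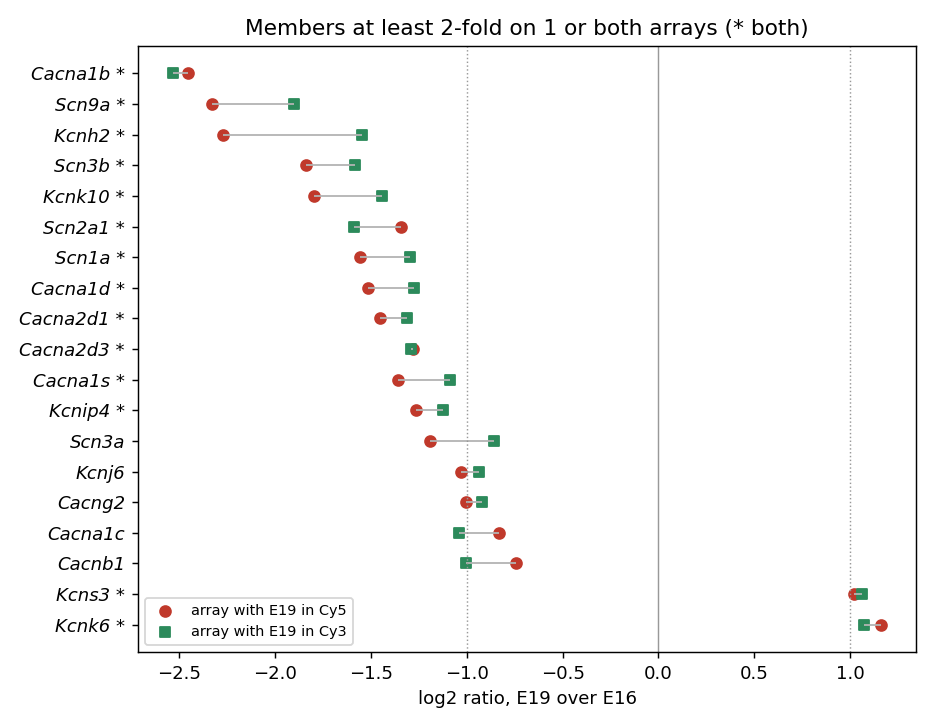
Log2 ratio of E19 over E16 on each array for the 19 channel genes that were at least 2-fold on 1 or both arrays; circles are the array with E19 in Cy5, squares the array with E19 in Cy3, and dotted lines mark 2-fold. The 14 genes with a star reached 2-fold on both arrays, 12 towards E16 and 2 towards E19, and the other 5 on 1 array only.

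Sodium channel genes showed a split between neighbours. Of 14 members, 12 were detected, 10 lay below 0, 4 were past the rule towards E16 and 0 towards E19, and the median log2 ratio was -0.49. Scn9a, the Nav1.7 channel of pain-sensing and sympathetic neurons, had levels of 8.78 and 8.83 in E16 and 6.45 and 6.93 in E19 (log2). A second, dimmer Scn9a probe was not detected and had a mean of -0.17. On neither array did the brighter probe's E19 signal stand well above background. The Scn9a difference is therefore a bound, at least 4.33-fold higher in E16. Scn1a, the Nav1.1 channel of central and large sensory neurons, was likewise measured in E16 only, at least 2.69-fold higher there, with ratios of -1.56 and -1.30.

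Scn2a1 (current symbol Scn2a), the Nav1.2 channel of central axons, was measured in both pools, with ratios of -1.34 and -1.59 (mean -1.47 ± 0.18). All 3 of its detected probes were past the rule, the others with means of -1.74 and -1.12. Scn3a, the Nav1.3 channel of embryonic neurons, reached 2-fold on 1 array, with -1.19 and -0.86 (mean -1.03 ± 0.24). In the GRCr8 gene order of chromosome 3, Scn3a and Scn2a lie side by side, 4 genes separate Scn2a from Scn1a, and Scn1a, Scn9a and Scn7a lie side by side. Along that order the mean log2 ratios were -1.03, -1.47, -1.43, -2.12 and -0.09. Scn7a, a sodium-sensing channel of glia that is not opened by voltage in the usual range, stood apart from its neighbours with 0.08 and -0.26 on the 2 arrays.

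On chromosome 8 lie the channels Scn10a and Scn11a of pain-sensing neurons. Scn10a had ratios of -0.56 and -0.62, and Scn11a, measured in E19 on 1 array only, had -0.53 and -0.28. Neither was past the rule, and Scn8a, the Nav1.6 channel of nodes of Ranvier on chromosome 7, was measured in E16 only, at least 1.26-fold higher there. Scn4a, the adult skeletal muscle channel, was not detected. Alpha subunits are alike in coding sequence, and whether a probe also reads a related gene was not tested. Of the beta subunits, Scn3b, which is known from embryonic neurons, was bright on the array, with levels of 14.69 and 14.54 in E16 and 12.85 and 12.95 in E19 (log2). Its ratios were -1.84 and -1.58 (mean -1.71 ± 0.18), a level 3.28-fold higher in E16. Scn4b had 0.00 and -0.01, and Scn2b was not detected.

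**Figure D3:**
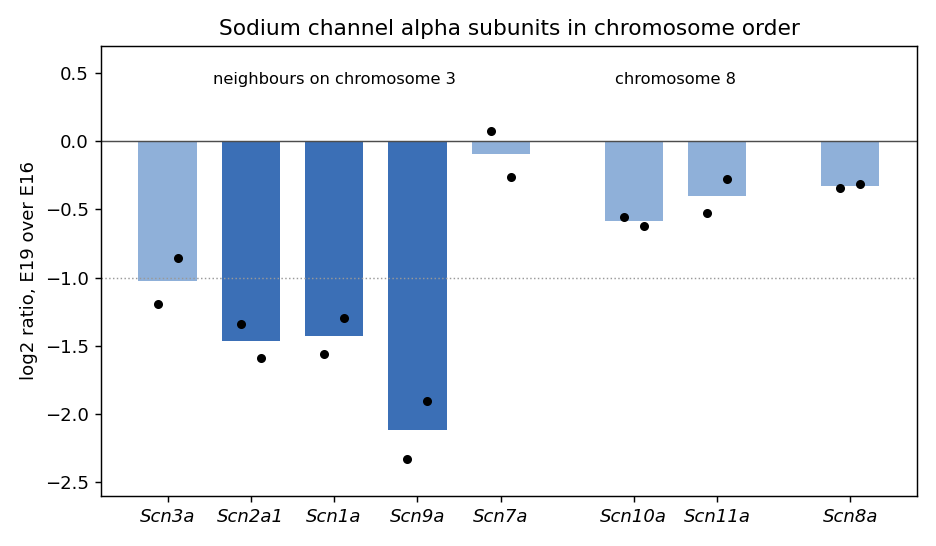
Log2 ratio of E19 over E16 for 8 sodium channel alpha subunits in chromosome order; bars are the mean and points the 2 arrays, dark bars are past 2-fold on both arrays, and the dotted line marks 2-fold. Scn3a to Scn9a on chromosome 3 lie between -1.03 and -2.12, while Scn7a beside them is at -0.09.

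Potassium channel genes, the largest group, were mixed. Of 86 members, 61 were detected, 40 of them below 0, with 3 past the rule towards E16, 2 towards E19 and a median of -0.17. These counts are 4.92% and 3.28% of the detected potassium genes, near the 3.74% and 4.15% of all detected genes. Kcnh2, the ERG channel that repolarises heart and smooth muscle and is also found in neurons, had levels of 12.29 and 11.80 in E16 and 10.02 and 10.26 in E19 (log2). Its ratios of -2.27 and -1.55 were the furthest apart of any detected member (mean -1.91 ± 0.51), yet both were past 2-fold. Kcnk10, the TREK-2 leak channel of neurons, had -1.80 and -1.44. It was measured in E16 only and was at least 3.07-fold higher there. Kcnip4, a calcium-binding partner of Shal channels in neurons, had -1.27 and -1.12 (mean -1.19 ± 0.10).

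The 2 members higher in E19 were also potassium channels. Kcnk6, the TWIK-2 leak channel, had levels of 11.48 and 11.40 in E16 and 12.64 and 12.47 in E19 (log2), with ratios of 1.16 and 1.07 (mean 1.12 ± 0.06). A dimmer Kcnk6 probe read 0.67 and 0.47, and averaging the probes takes Kcnk6 out of the count. Kcns3, a silent subunit that changes the currents of Kv2 channels, had levels of 9.87 and 9.72 in E16 and 10.89 and 10.78 in E19 (log2), with 1.02 and 1.06 (mean 1.04 ± 0.03). Both genes sat just inside the threshold. With median centring in place of loess neither passed on both arrays, although their means of 1.06 for Kcnk6 and 1.01 for Kcns3 changed little, and neither passed with centring on spike-in RNAs.

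**Figure D4:**
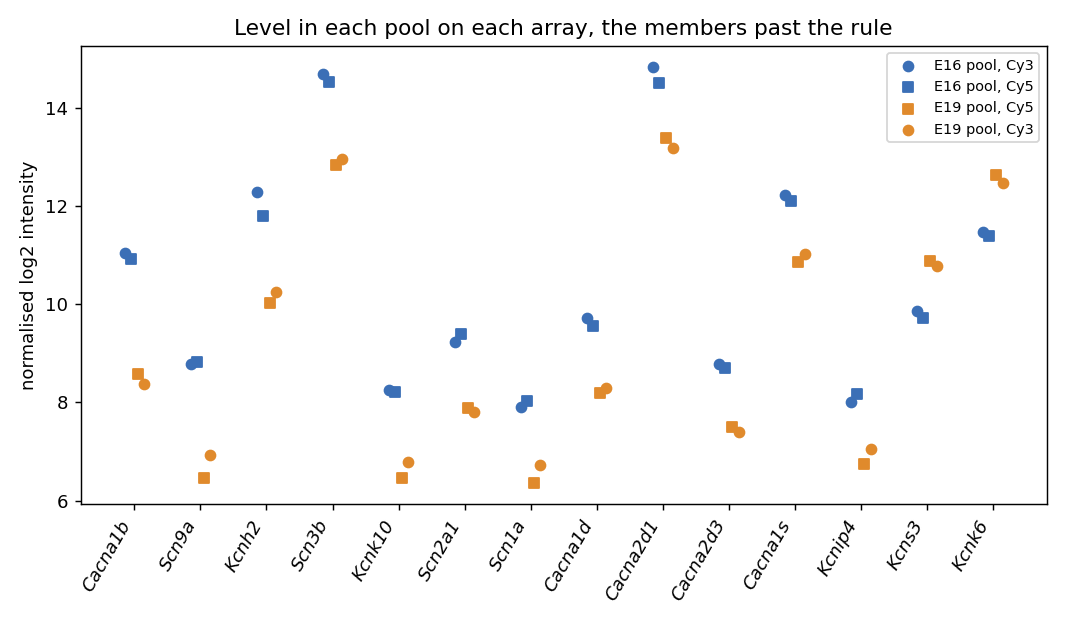
Normalised log2 intensity of the 14 channel genes past the size rule in the E16 pool (blue) and the E19 pool (orange) on both arrays; circles are Cy3 and squares Cy5. E16 is higher in 12 and E19 in Kcns3 and Kcnk6. The genes were chosen as at least 2-fold higher in the same pool on both arrays. A gap between the pools is therefore part of the choice. Levels of different genes come from different probes and are not comparable.

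Medians of the potassium families ran from -0.43 for the 7 detected inward rectifiers upwards, with no test of the differences. The 9 detected leak channels of the 2-pore family had a median of 0.21 and a range from -1.62 (Kcnk10) to 1.12 (Kcnk6), and the 7 silent Kv subunits a median of 0.17. Kcnk2 (TREK-1), the closest relative of Kcnk10, had -0.73 and -0.55. The acid-sensing Kcnk3 (TASK-1) had 0.63 and 0.39, and was well above background in E16 on 1 array only. The 12 detected Shaker, Shab, Shaw and Shal subunits had a median of -0.09, the 11 calcium- or sodium-activated channels -0.29, the 8 auxiliary subunits -0.30 and the 6 EAG and ERG channels -0.22. Kcnd2, the Shal channel that partners Kcnip4 in neurons, had -0.87 and -0.81, with E19 measured on 1 array only, while its relatives Kcnd1 and Kcnd3 had means of -0.02 and 0.02.

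Of 15 inward rectifiers, which hold the resting potential, 7 were detected. Kcnj6, opened by G proteins in neurons, reached 2-fold on 1 array, with -1.03 and -0.94, was measured in E16 only and was at least 1.84-fold higher there. Its partner Kcnj3 had -0.47 and -0.33. The ATP-sensitive channels differed in level between pools by less: Kcnj11, of muscle and beta cells, had -0.47 and -0.40, and the vascular Kcnj8 had -0.28 and -0.03. Kcnj12, of heart and skeletal muscle, lay on the other side with 0.55 and 0.36. The remaining members measured in the E16 pool only were Kcnj13, Kcnmb2, Kcnc1, Kcnt2, Kcnv1 and Kcnt1, with bounds from at least 1.22-fold for Kcnt1 to at least 1.60-fold for Kcnj13.

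The 5 detected epithelial members spread to both sides of 0, from -0.72 to 0.39, and none was past the rule. Kcne3, the partner of KCNQ1 in secreting epithelia, had 0.22 and 0.34, and Kcnk1 (TWIK-1), a leak channel of kidney and other epithelia, had 0.39 on both arrays. The calcium-activated channel Kcnn4, which epithelial and blood cells use, had -0.04 and -0.10. Kcne2, of stomach and thyroid epithelium, had -0.43 and -0.44, and Kcnj13, of pigment and transporting epithelia, -0.83 and -0.62. With the background-subtracted signals of the scanner software both Kcne2, at -1.12, and Kcnj13, at -3.03, were past the rule towards E16, and Kcnj13 was not well above background in E19. Kcnq1, Kcne1, Kcnj1, Kcnj15 and Kcnj16, known from kidney, inner ear and glands, were not detected. Keratinocyte markers, by contrast, had a summed level of 17.56 and 18.44 in E16 and 19.59 and 19.83 in E19 (log2), and their part in the channel values was not tested.

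In all, 33 members were not detected: 15 neuronal, 4 muscle, 5 epithelial and 9 other. Besides those named above they include the fast-spiking channel Kcnc2, the M-current gene Kcnq3 and the inward rectifier Kcnj2 of heart and skeletal muscle. A low signal on these probes does not show that the genes were silent.

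Genes that work with these channels lay the same way. Of 37 partners listed (anchors, accessory subunits, pumps and calcium release channels), 31 were on the array and 26 detected, with 4 past the rule towards E16, 0 towards E19 and a median of -0.42. Fgf13, which binds sodium channels inside the cell, had -2.09 and -1.75. Lgi1, a secreted ligand at synapses, had -1.63 and -1.84, and the glial sodium pump subunit Atp1b2 had -1.39 and -1.32. Dpp10, a partner of Shal channels, was at least 2.26-fold higher in E16 and was measured there only. The muscle calcium release channel Ryr1, which Cacna1s gates, had -0.93 and -0.83, and Stac3, which links the pair, had -0.76 and -0.97, while the muscle calcium pump Atp2a1 had 0.28 and 0.09 and triadin (Trdn) 0.16 and 0.31.

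How large a ratio appeared depended on the processing of the signals. With normexp at an offset of 0 in place of 50, 17 members were past the rule towards E16 and 2 towards E19, against 773 and 775 of 14803 genes. With the background-subtracted signals of the scanner software, which also change the dye normalisation, they were 27 and 4, against 888 and 1012 genes, and the medians were -0.87 for neuronal and -0.53 for muscle members. Under those signals Scn9a stood at -4.14, Kcnj6 at -3.76, Scn1a at -3.67 and Kcnk10 at -3.43, although none of them was measured in E19. Kcnip4, measured in both pools, went from -1.19 to -2.38. Cacna1b moved less, to -2.82, and Scn3b to -1.75. The authors' deposited table gives log2 ratios of -2.47 for Cacna1b and -3.79 for Scn9a, and -2.30 for Scn2a1 against the -1.47 found here. For Cacna1s the authors' deposited table gives a 1.97-fold higher level in E16. That table holds a single value per sequence. Cacna1b, Scn9a, Scn2a1 and Cacna1s each have several probes for the matched sequence, so its values need not belong to the probe used here. Whether the gaps to the authors' values come from processing was not tested.

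**Figure D5:**
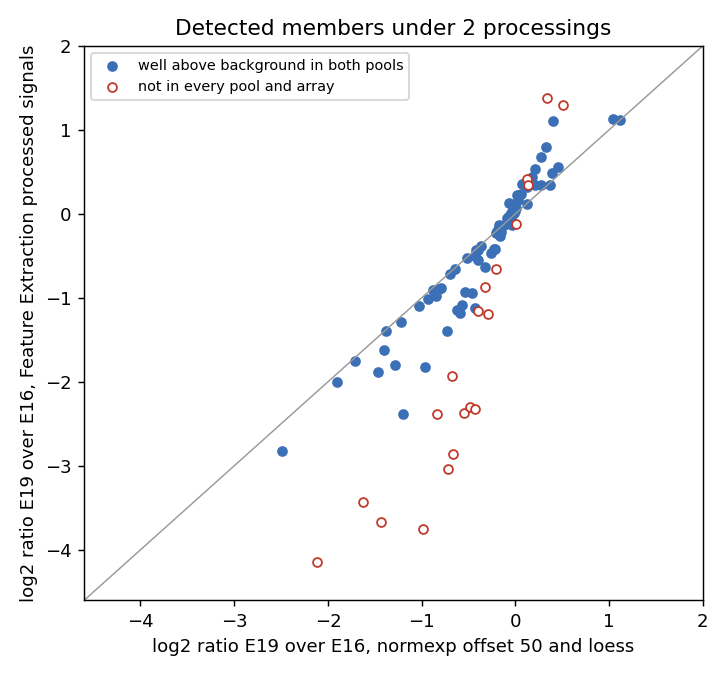
Mean log2 ratio of E19 over E16 for the 92 detected channel genes with normexp at an offset of 50 and loess (horizontal) and from the background-subtracted signals of the scanner software (vertical); filled points were well above background in both pools on both arrays, open points were not, and the line marks equal values. Scn9a, at -2.12 and -4.14, is the lowest open point, while Cacna1b, at -2.49 and -2.82, lies near the line.

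The middle of the list lay below 0 for bright and dim members. Members at or above the middle intensity of the list and members below it had medians of -0.29 and -0.27, and 34 of 46 lay below 0 in each. Of the dimmer 46, 27 were measured in both pools on both arrays, 10 in the E16 pool only and 0 in the E19 pool only. Those 10 passed the detection filter through the pool where they are higher, so the dim median is not independent of the filter. The 10 spike-in RNA probes had a mean log2 ratio of 0.22, and centring on them moves the median of all genes from 0.02 to -0.20. The median of the members moves alike, from -0.27 to -0.49. The split of the members past the rule is then 17 towards E16 and 0 towards E19, against 802 and 379 of all genes. With median centring in place of loess it is 10 and 0, against 439 and 368 of all genes. Cacna1s and Cacna2d1 then miss 2-fold on 1 of the arrays, at means of -1.28 and -1.40.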

How the data were processed

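RNA of 1 pool per stage was hybridised to 2 dye-exchanged arrays of 45018 spots. Per the file headers, spot intensity and local background were read with Agilent Feature Extraction 9.5.1.1, which also wrote background-subtracted, dye-normalised intensities and their log10 ratio. A further deposited table holds, per sequence, 1 log10 ratio and 1 p-value for both arrays together; how the authors combined them is not given in the sources used here. From its correlation across probes with the software's log ratios of each array turned to E19 over E16 (r = 0.97 and 0.98), that table was taken to run E19 over E16.

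Background was corrected by normexp (offset 50) and ratios by loess within arrays, control spots at weight 0, with limma 3.58.1 in R 4.3.3. Both arrays were turned to E19 over E16 and averaged. Levels are log2 channel intensities after loess and Aquantile. Each gene has its brightest detected probe; of 125 members 27 have several probes, and 3 have detected probes that differ on the rule. Where a pool was not well above background on either array, the other pool was set against the dim pool's own signal or, where higher, the lowest signal of any well-measured probe in that channel, as at least N-fold. Later steps used Python 3.11.15, numpy 2.4.6, pandas 2.3.3 and matplotlib 3.10.9. Only the normalisation and the 2-fold rule were run on simulated arrays, where differences were given to probes of middle brightness alone. The precision is limited by the number of arrays.

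Members, classes and lists were chosen with earlier results of these data known. Members to be named were those past the rule, up to 6 of each class by size of ratio, those measured in 1 pool only, the 5 brightest, and those 2-fold on 1 array; other members and partners were named to complete a family. Gene order and promoters come from RefSeq tables of GRCr8; the array files name no build. Some members and partners are not reported here by name; the counts and medians include them.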

Additional observations from a re-analysis of the deposited data

How the results depend on the processing

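Of 36 named members, none changed sign under any alternative run where it was past the rule, and 16 moved by over 1.5-fold under at least 1, of which 6 were past the rule. The count towards E16 (12) was 27 with Feature Extraction's processed signals and with its log ratios (all genes 888 towards E16 and 1012 towards E19 of 14803), 29 in the authors' deposited table (995 and 1187 of 14704), 25 at 1.5-fold (1141 and 1412 of 14803) and 2 at 3-fold (Cacna1b and Scn9a; 230 and 179). The count towards E19 (2) was 4 under both Feature Extraction settings and in the authors' deposited table, 1 with the mean over probes, and 0 with median centring, with spike-in centring and at 3-fold.

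The median of all detected members (-0.27) was -0.41 at offset 0, -0.34 with no background subtraction, -0.43 under both Feature Extraction settings and in the authors' deposited table, -0.26 with median centring, -0.49 with spike-in centring, -0.31 with the mean over probes, -0.20 with both pools required above background, -0.12 with no filter, -0.28 on the array with E19 in Cy5 alone and -0.24 with RefSeq names. The neuronal median (-0.43) was -0.66 at offset 0, -0.53 with no background subtraction, -0.87 under both Feature Extraction settings and in the authors' deposited table, -0.65 with spike-in centring and -0.24 with no filter. The muscle median (-0.42) was -0.54, -0.53 (Feature Extraction and the authors' deposited table), -0.63 and -0.12 at offset 0, under those sources, with spike-in centring and with no filter. The epithelial median (-0.07) changed sign with both pools required (0.10) and with no filter (0.033), and was -0.030 under Feature Extraction and in the authors' deposited table and -0.29 with spike-in centring. The cause of these moves was not tested. Ratios of several probes near background differed in size between processings, and which value is nearer the true size was not tested. No paired analysis was possible because each stage is 1 pool.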

Other observations

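Probes of the same channel gene did not always give the same value. Kcnq5, a potassium channel of the M-current, has a very bright probe, named for an expressed sequence tag, that read -0.05 on both arrays, and a dimmer one named for a RefSeq transcript that read -1.0004 and -0.704. The brightest probe stands for the gene in the counts, so Kcnq5 counts as near 0 there. Of 5 KCNQ family members, Kcnq5 was the 1 detected.

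Probes of 4 channel genes carry an older array name that the name rule does not match. By accession, Kcnip3, named Csen on the array, and Kcnk18, named Tresk-2, were detected at -0.01 and 0.10, and Kcnip2 (named Kchip2 on this probe, and in the list through another) and Cacna2d4 were not detected.

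Neighbours other than the sodium channels on chromosome 3 also differed among themselves. On chromosome 1 the gamma subunits Cacng6, Cacng8 and Cacng7 lie side by side, with mean log2 ratios of -0.40, -0.62 and 0.01. On chromosome 4, Kcna5, Kcna1 and Kcna6 lie side by side with 0.21, -0.17 and 0.06.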
